A study of Mus musculus with 8 samples.

Results

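The calcineurin and NFAT genes examined here were the 10 genes Nfatc1, Nfatc2, Nfatc3, Nfatc4, Nfat5, Ppp3ca, Ppp3cb, Ppp3cc, Ppp3r1 and Rcan1, chosen by symbol from a table of 34536 gene symbols. All 10 were in the table, and all 10 had enough counts to be among the 13817 genes tested. The RNA came from mouse cells that a fluorescence sorter took from embryoid bodies, which are clumps of stem cells left to differentiate in culture. One group of 4 libraries (A, C, E and G) was labelled endocardial, the endothelium that lines the heart, and the other 4 (B, D, F and H) endothelial. Neither label gives a treatment, a genotype, a time in culture or a stem cell line, and the sources used here do not give the sort markers. The sort matters for Nfatc1, since a sort that used this gene or a reporter of it would itself set the difference between the groups.

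Calcineurin is a phosphatase that calcium and calmodulin switch on. It takes phosphate groups off the 4 NFATc transcription factors in the cytoplasm, which then enter the nucleus, while several kinases add the groups back and send the factors out again. Nfat5, the remaining family member, lacks the calcineurin docking region and answers to high salt. In the mouse heart, Nfatc1 is known as a factor of the endocardium that valve formation needs, and Nfatc3 and Nfatc4 are known from early vessels. Control of NFATc factors by calcineurin acts on the protein, and RNA counts do not measure it.

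The libraries held between 6677667 and 11369363 estimated counts. Levels are given as CPM, the count brought to the same scaled library total in each library. With counting error alone, a count of 0 allows a level of 3 counts, which was 0.264 CPM in the deepest and 0.449 CPM in the shallowest library. The endothelial genes Pecam1 and Cdh5 were detected in all 8 libraries, and Cdh5 averaged 132 ± 17.3 CPM in endocardial and 16.1 ± 1.11 CPM in endothelial libraries (SD, n = 4 each). A list of 24 endothelial genes summed to between 1816 and 2218 CPM in endocardial libraries and between 530.1 and 974 CPM in endothelial libraries, with the lowest value in library F. The same library had the highest summed level of 11 pluripotency genes, 1030 CPM, against 35.4 to 144 CPM in the endocardial and 153 to 292 CPM in the other endothelial libraries. In such bulk samples, fewer cells of a type and less RNA per cell cannot be told apart.

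Of the 10 genes, 1 differed between the groups. Nfatc1 was higher in the endocardial libraries, while no difference was called for its paralogs, for the subunits of calcineurin or for the calcineurin inhibitor gene Rcan1. The test was edgeR's quasi-likelihood test, with p-values adjusted by the Benjamini-Hochberg method over all 13817 tested genes and a call at an adjusted p below 0.05. That rule called 2.58% of all tested genes. DESeq2 called 6.22% of them, and edgeR with neighbouring letters (A and B, and so on) blocked together, a pairing no label states, called 8.71%. Among the 10 genes, each of these fits called Nfatc1 alone. Limma with voom weights, which called 7.06% of all tested genes, called Nfatc1 and Nfatc2. The 2 groups did not overlap for 1 of the 10 genes, Nfatc1, and for 9.76% of all tested genes.

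**Figure D1:**
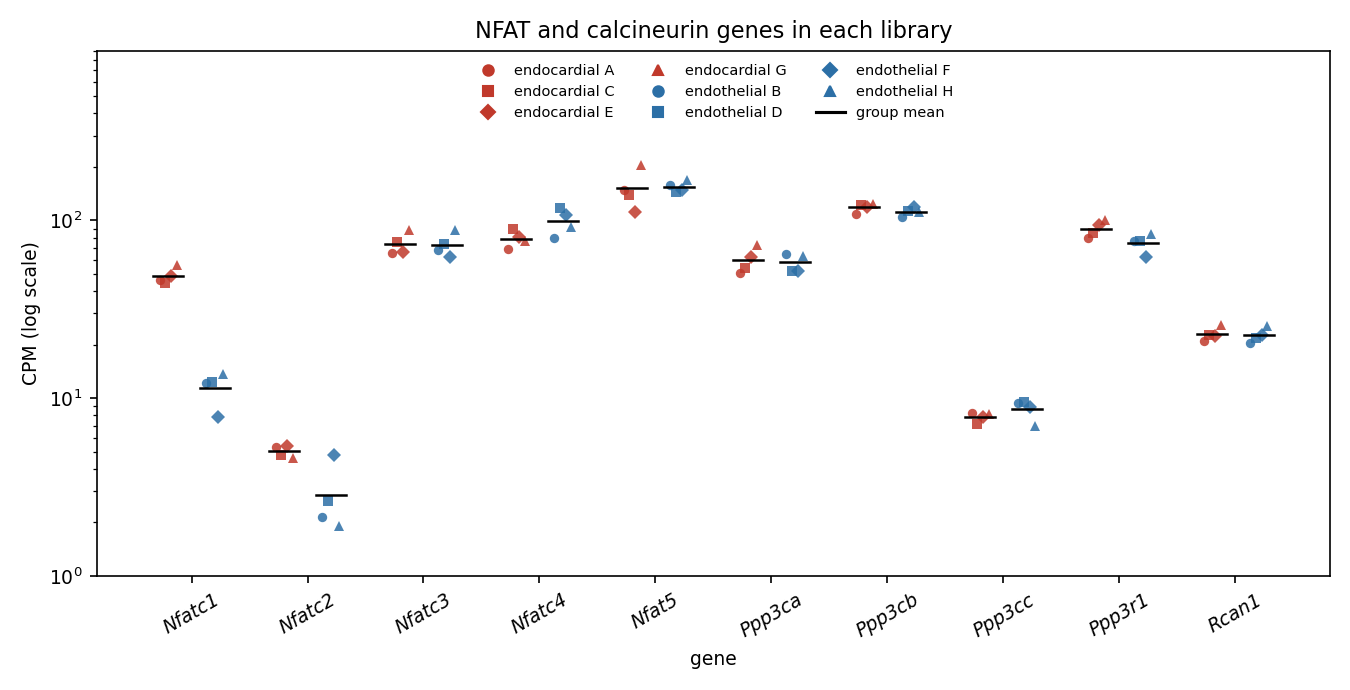
Level of each of the 10 genes in CPM, on a log axis, with 1 point per library, endocardial libraries in red to the left of endothelial libraries in blue, and a bar at each group mean. The red points of Nfatc1, from 44.6 to 56.0 CPM, lie above all its blue points, from 7.82 to 13.6 CPM, and for the other 9 genes the colours overlap.

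Nfatc1 (mouse build GRCm38, chromosome 18, 80606205 to 80713071, minus strand, protein-coding) had 46.1, 44.6, 48.7 and 56.0 CPM in endocardial libraries A, C, E and G. It had 12.2, 12.3, 7.82 and 13.6 CPM in endothelial libraries B, D, F and H. Each endocardial library was above each endothelial one, and the lowest value was that of library F. The log2 fold change was 2.09 (SE 0.17, 95% interval 1.71 to 2.48, edgeR adjusted p = 0.000187), a 4.26-fold difference, with the interval from 3.26-fold to 5.56-fold. By p-value Nfatc1 stood at place 18 of all tested genes, and by size at place 49 of the 196 genes called higher. Without library F the log2 fold change was 1.92, and the part of that library's pluripotency gene level in the result was not tested.

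The size of the Nfatc1 difference lay in the middle of those of the listed endothelial genes. Of 23 tested genes of the endothelial list, 12 had a larger and 11 a smaller log2 fold change than Nfatc1, and the list's median was 2.16, against 0.01 over all tested genes. Relative to Cdh5, the endothelial cadherin, Nfatc1 counts were lower in the endocardial libraries, at a ratio of 0.293 to 0.440 against 0.541 to 0.839 in the endothelial libraries. Relative to Pecam1 they were higher, at 0.281 to 0.363 against 0.0724 to 0.162. Relative to the summed counts of the list they were also higher, by 0.73 on the log2 scale. That sum gives most weight to the most abundant genes, Kdr and Tek. Kdr averaged 612 CPM in endocardial and 242 CPM in endothelial libraries, and Tek 230 and 208 CPM. Their log2 fold changes, 1.34 and 0.15, were below the list's median. In each of these 3 ratios, which were added after the values had been seen, the groups did not overlap (two-sided exact permutation p = 0.0286 each, the smallest that 4 against 4 libraries can give). Whether Nfatc1 was higher relative to the listed endothelial genes therefore depended on the gene it was set against.

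Nfatc2, which is best known from lymphocytes, was the least abundant of the 10, with 16 to 50 counts in a library. It had 5.29, 4.81, 5.38 and 4.62 CPM in endocardial libraries A, C, E and G, against 2.14, 2.63, 4.8 and 1.91 CPM in endothelial libraries B, D, F and H. The groups overlapped through library F, which lay among the endocardial values, while the other 3 endothelial libraries lay below them. The log2 fold change of 0.80 (SE 0.32, 95% interval 0.09 to 1.52) was not called by edgeR (adjusted p = 0.273, unadjusted p = 0.0313). Of the 10 genes, 3 had an unadjusted p below 0.05, as did 14.6% of all tested genes. Without library F the log2 fold change was 1.16 (edgeR adjusted p = 0.0556). Limma with voom weights, which gave less weight to libraries that vary more, called Nfatc2 higher (log2 fold change 0.94, adjusted p = 0.0283), in a fit that called 7.06% of all tested genes, and over 17 alternatives the adjusted p ran from 0.0283 to 0.475. Counting alone would give a coefficient of variation of 19.6% in the endothelial libraries, and the observed one was 46.0%.

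Nfatc2, Nfatc3 and Rcan1 each have 2 annotated starts in the RefSeq promoter table of build GRCm38.p6, which held windows for 7 of the 10 genes. The deposited values are summed per gene symbol, so reads from the 2 starts cannot be told apart in these data. The 2 Nfatc2 windows, each of 300 bases with 250 before and 50 after the start, show what lies at these starts. Capitals mark GGAAA, the core that NFAT proteins bind, or its reverse complement TTTCC. The window of the first line is at chr2:168601608-168601907 and that of the second at chr2:168590316-168590615, both on the minus strand and printed 5′ to 3′.
Nfatc2 upstream start: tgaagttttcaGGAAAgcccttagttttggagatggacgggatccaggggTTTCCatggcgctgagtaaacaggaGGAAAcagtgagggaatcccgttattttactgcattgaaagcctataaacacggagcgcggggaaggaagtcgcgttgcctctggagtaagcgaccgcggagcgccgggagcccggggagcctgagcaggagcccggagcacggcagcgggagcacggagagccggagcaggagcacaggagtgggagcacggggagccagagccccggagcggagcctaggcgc
Nfatc2 downstream start: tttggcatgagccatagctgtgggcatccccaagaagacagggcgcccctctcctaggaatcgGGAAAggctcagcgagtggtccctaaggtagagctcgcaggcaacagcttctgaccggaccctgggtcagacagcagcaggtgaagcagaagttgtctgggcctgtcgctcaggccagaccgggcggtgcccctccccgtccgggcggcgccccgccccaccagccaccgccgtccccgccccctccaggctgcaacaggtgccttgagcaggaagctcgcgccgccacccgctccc
The upstream window held 3 matches and the downstream window 1, each on either strand. Of 32851 promoter windows of the same length, 61.3% held at least 1 match and 9.42% at least 3. GGAAA also overlaps the GGAA core of ETS factors, so a match does not point to one family.

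Nfatc3, a widely expressed paralog, had nearly equal means in both groups. It had 65.5, 75.2, 66.0 and 87.8 CPM in endocardial libraries A, C, E and G, against 68.5, 73.9, 62.4 and 87.8 CPM in endothelial libraries B, D, F and H. The highest value of each group was in library G and library H. The log2 fold change was 0.01 (SE 0.14, 95% interval -0.30 to 0.32, edgeR adjusted p = 0.986), so the interval allowed a difference of up to 1.25-fold higher or to 0.813 of the endothelial level.

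Nfatc4, which acts with Nfatc3 in the patterning of embryonic vessels in mice, leaned the other way from Nfatc1. It had 69.3, 89.4, 80.5 and 76.4 CPM in endocardial libraries A, C, E and G, against 79.7, 117, 107 and 91.4 CPM in endothelial libraries B, D, F and H. Endocardial A and G lay below all endothelial libraries, while endocardial C and E lay above endothelial B. The log2 fold change of -0.32 (SE 0.14, 95% interval -0.63 to -0.02) was not called by edgeR (adjusted p = 0.309, unadjusted p = 0.0405). It was negative in all 17 alternatives, between -0.41 and -0.23, with adjusted p-values from 0.0512 to 0.614.

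Nfat5, the salt-responsive member, had the most counts of the 10 genes, with 148, 140, 112 and 205 CPM in endocardial libraries A, C, E and G. In endothelial libraries B, D, F and H it had 158, 144, 148 and 168 CPM. The endothelial values all lay inside the endocardial range, which was set by E at the low end and G at the high end. The log2 fold change was -0.03 (SE 0.17, 95% interval -0.40 to 0.34, edgeR adjusted p = 0.966). Its coefficient of variation was 25.8% in endocardial libraries, where counting alone would give 2.78%, and 6.84% in endothelial libraries.

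The 3 genes for catalytic subunits of calcineurin were not called in either direction. Ppp3ca, the alpha subunit that is abundant in brain, had 50.6, 54.3, 62.1 and 72.5 CPM in endocardial libraries A, C, E and G and 64.9, 51.8, 52.2 and 63.3 CPM in endothelial libraries B, D, F and H. Its log2 fold change was 0.04 (SE 0.14, 95% interval -0.27 to 0.35, edgeR adjusted p = 0.931). Ppp3cb, the widely expressed beta subunit, was the steadiest of the 10, with 109, 122, 119 and 124 CPM in endocardial libraries A, C, E and G and 105, 113, 119 and 111 CPM in endothelial libraries B, D, F and H. Its log2 fold change was 0.09 (SE 0.09, 95% interval -0.11 to 0.29, edgeR adjusted p = 0.744), which allowed at most a 1.22-fold higher level. Ppp3cc, the gamma subunit known from testis, was low, with 7.12 to 8.26 CPM in endocardial and 6.94 to 9.49 CPM in endothelial libraries (log2 fold change -0.15, SE 0.18, edgeR adjusted p = 0.791). For all 3 genes the groups overlapped.

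Ppp3r1 encodes calcineurin B, the calcium-binding regulatory subunit that pairs with any of the 3 catalytic subunits. It had 79.1, 85, 94.4 and 100 CPM in endocardial libraries A, C, E and G, against 76.4, 76.8, 62.2 and 84.2 CPM in endothelial libraries B, D, F and H. Endocardial C, E and G lay above all endothelial libraries, and endocardial A lay below endothelial H. The log2 fold change of 0.26 (SE 0.12, 95% interval -0.01 to 0.53) was not called by edgeR (adjusted p = 0.369). It stayed positive in 17 alternatives, between 0.16 and 0.32, with adjusted p-values from 0.198 to 0.663.

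Rcan1 encodes an inhibitor that binds calcineurin, and it is known as a feedback gene: transcription from its internal start rises when NFAT is active. It had 20.9, 22.7, 22.5 and 25.9 CPM in endocardial libraries A, C, E and G, against 20.4, 21.8, 22.6 and 25.4 CPM in endothelial libraries B, D, F and H. The groups overlapped over nearly their whole range. The log2 fold change was 0.03 (SE 0.12, 95% interval -0.25 to 0.31, edgeR adjusted p = 0.951), so the interval ran from 0.843 to 1.24 times the endothelial level.

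The 2 Rcan1 windows are shown because the internal start is the one tied to NFAT and the deposited value sums both. The distal start is at chr16:92466120-92466419 and the internal start at chr16:92400029-92400328, both on the minus strand of GRCm38.p6, 300 bases each, with GGAAA or TTTCC in capitals.
Rcan1 distal start: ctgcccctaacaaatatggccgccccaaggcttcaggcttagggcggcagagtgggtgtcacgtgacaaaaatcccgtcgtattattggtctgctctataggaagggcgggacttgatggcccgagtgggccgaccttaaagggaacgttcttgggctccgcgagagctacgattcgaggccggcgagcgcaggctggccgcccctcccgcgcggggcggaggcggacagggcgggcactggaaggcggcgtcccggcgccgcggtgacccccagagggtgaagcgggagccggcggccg
Rcan1 internal start: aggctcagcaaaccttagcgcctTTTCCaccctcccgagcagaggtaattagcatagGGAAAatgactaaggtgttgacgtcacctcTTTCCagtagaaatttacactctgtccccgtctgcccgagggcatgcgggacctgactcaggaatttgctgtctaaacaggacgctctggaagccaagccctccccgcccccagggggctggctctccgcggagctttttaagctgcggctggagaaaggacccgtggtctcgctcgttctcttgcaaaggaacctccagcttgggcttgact
The distal window held 0 matches and the internal window 3. Such a count was not particular to Rcan1 and Nfatc2: the window of Ppp3cb held 4 matches, that of Nfatc4 held 3, that of Nfat5 held 2, the 2 of Nfatc3 held 1 and 0, and that of Ppp3r1 held 0. The internal window also held 1 match each to TGANTCA, the letters bound by AP-1, a known partner of NFAT, and to TGACGTCA, the cAMP response element, which overlap none of the capitals. On either strand, TGANTCA was found in 7.81% and TGACGTCA in 1.79% of the 32851 windows. Since the table has 1 value for Rcan1, the 0.03 difference is that of both starts together, and a change of the internal start beneath it was not measured.

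Of the 10 genes, 8 had a 95% interval that lay within a 2-fold difference either way, and 7 within a 1.5-fold difference. Nfatc1 and Nfatc2 were the 2 whose intervals went beyond 2-fold.

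**Figure D2:**
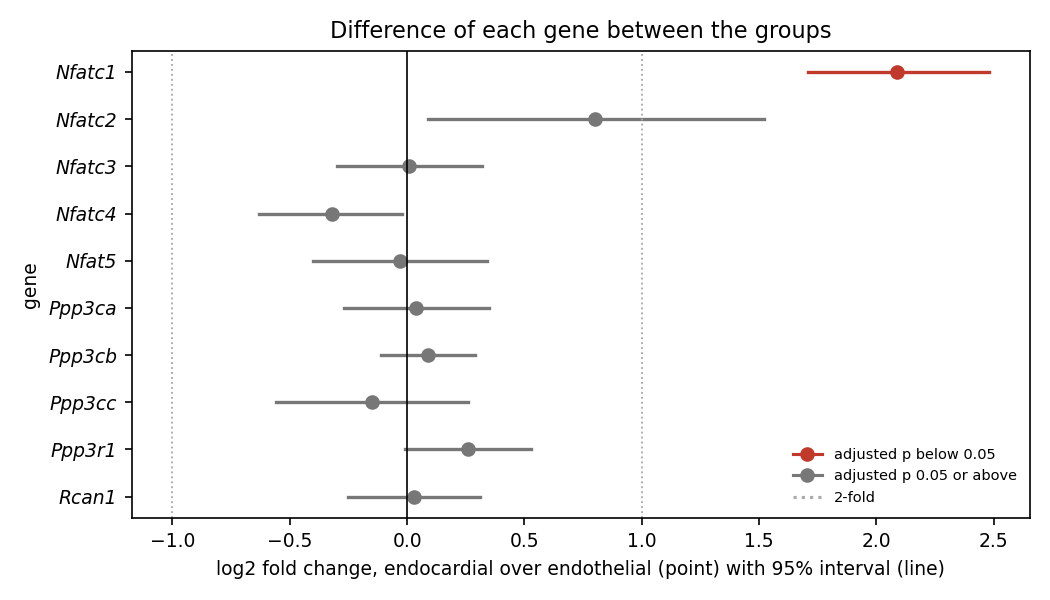
Difference of each gene between the groups, as the log2 fold change of endocardial over endothelial (point) with its 95% interval (line), with dotted lines at a 2-fold difference. Nfatc1 stands at 2.09, in red, while the other 9 genes lie between -0.32 and 0.80.

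Nfatc1 was then set against each of the other 9 genes inside each library, which removes any effect of how libraries were scaled. In counts, Nfatc1 was at 0.594 to 0.738 of Nfatc3 in endocardial libraries and at 0.126 to 0.179 in endothelial libraries. It was at 0.499 to 0.734 of Nfatc4 in endocardial and at 0.0736 to 0.154 in endothelial libraries. Against Rcan1, it had 1.96 to 2.20 counts per Rcan1 count in endocardial libraries and 0.347 to 0.599 in endothelial libraries. These ratios are in counts and serve to compare libraries, not the levels of the 2 genes, whose lengths differ.

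The groups did not overlap in any of the 9 ratios, and each gave a two-sided exact permutation p of 0.0286, the smallest that 4 against 4 libraries can give. These ratios share their numerator, so they are not independent, and the p-values were not adjusted. Nfatc1 alone had already separated the groups, and the 9 other genes had log2 fold changes of only -0.32 to 0.80. The ratios therefore restate the Nfatc1 difference and are no separate support for it. The difference between the groups in the log2 ratio was 2.10 against Nfatc3, 2.42 against Nfatc4, 2.17 against Nfat5 and 1.22 against Nfatc2. It was 2.07 against Ppp3ca, 2.02 against Ppp3cb, 2.25 against Ppp3cc, 1.85 against Ppp3r1 and 2.08 against Rcan1. The least difference, that against Nfatc2, rested in part on library F: without it the value was 0.77, and with the other libraries left out in turn it was between 1.11 and 1.47. In library F, Nfatc1 had 1.62 counts per Nfatc2 count, against 4.57 to 6.94 in the other endothelial libraries and 8.61 to 12 in the endocardial libraries.

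**Figure D3:**
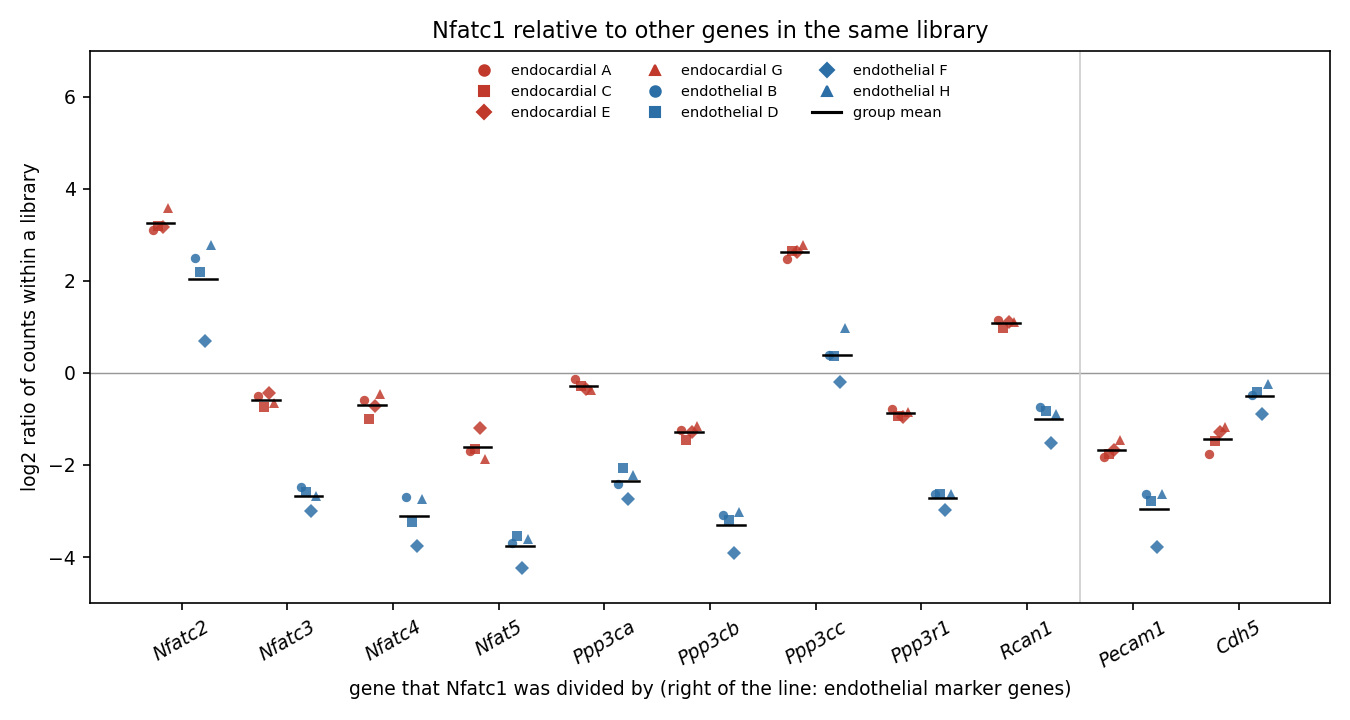
Log2 ratio of Nfatc1 counts to the counts of another gene in the same library, with 1 point per library, endocardial libraries in red to the left of endothelial libraries in blue, and a bar at each group mean. Against each of the 9 other NFAT and calcineurin genes and Pecam1 all red points lie above the blue ones, and against Cdh5 they lie below, at -1.77 to -1.18 against -0.89 to -0.25.

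To set levels of different genes side by side, CPM values were divided by the length of each gene's exons in kb. On this scale the order in the endocardial libraries was Ppp3r1 (27.8 ± 2.90 CPM per kb), Nfatc4 (13.6 ± 1.44), Ppp3cb (13.5 ± 0.755), Nfat5 (8.24 ± 2.13), Rcan1 (7.46 ± 0.685), Nfatc1 (6.54 ± 0.679), Nfatc3 (6.28 ± 0.892), Ppp3ca (6 ± 0.969), Ppp3cc (2.62 ± 0.170) and Nfatc2 (0.475 ± 0.0348; SD, n = 4). Nfatc4 and Ppp3cb overlapped, as did each pair of neighbours from Nfat5 to Ppp3ca, so those orders are not beyond the spread. Ppp3cc and Nfatc2 each lay below all genes above them.

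In the endothelial libraries Nfatc1 stood at place 9 of 10, against place 6 in the endocardial libraries, at 1.54 ± 0.338 CPM per kb (SD, n = 4). There it lay below Ppp3cc (2.91 ± 0.399) and above Nfatc2 (0.271 ± 0.125), with no overlap on either side. Ppp3r1 (23.2 ± 2.85) and Nfatc4 (17.0 ± 2.83) led the order and overlapped. The leaders depended on the length used: in endothelial libraries Ppp3cb came first with the longest transcript and Nfatc4 with the median coding transcript, where Ppp3r1 was at place 4. With the longest transcript or the median coding transcript as the length, Nfatc1 stood at place 7 in endocardial and 9 in endothelial libraries.

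The make-up of the NFAT family by CPM per kb shifted with Nfatc1. Nfatc1 made up 18.7 ± 1.41% of the summed level of the 5 NFAT genes in the endocardial libraries and 4.61 ± 1.06% in the endothelial libraries (SD, n = 4 each). With the median coding transcript as the length the share was 11.9% in endocardial and 2.84% in endothelial libraries. Nfatc4 held the largest share in both groups, 38.9 ± 4.73% in endocardial and 50.6 ± 5.60% in endothelial libraries, and Nfatc3 held 17.8 ± 0.740% in endocardial and 18.7 ± 2.53% in endothelial libraries. The summed level of the 5 genes was 35.1 ± 3.48 CPM per kb in the endocardial and 33.4 ± 2.57 CPM per kb in the endothelial libraries, with overlapping ranges. The 3 catalytic subunits kept close shares: Ppp3cb had 61.0 ± 2.22% in endocardial and 59.3 ± 2.93% in endothelial libraries, and Ppp3ca had 27 ± 2.45% in endocardial and 27.1 ± 3.31% in endothelial libraries.

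**Figure D4:**
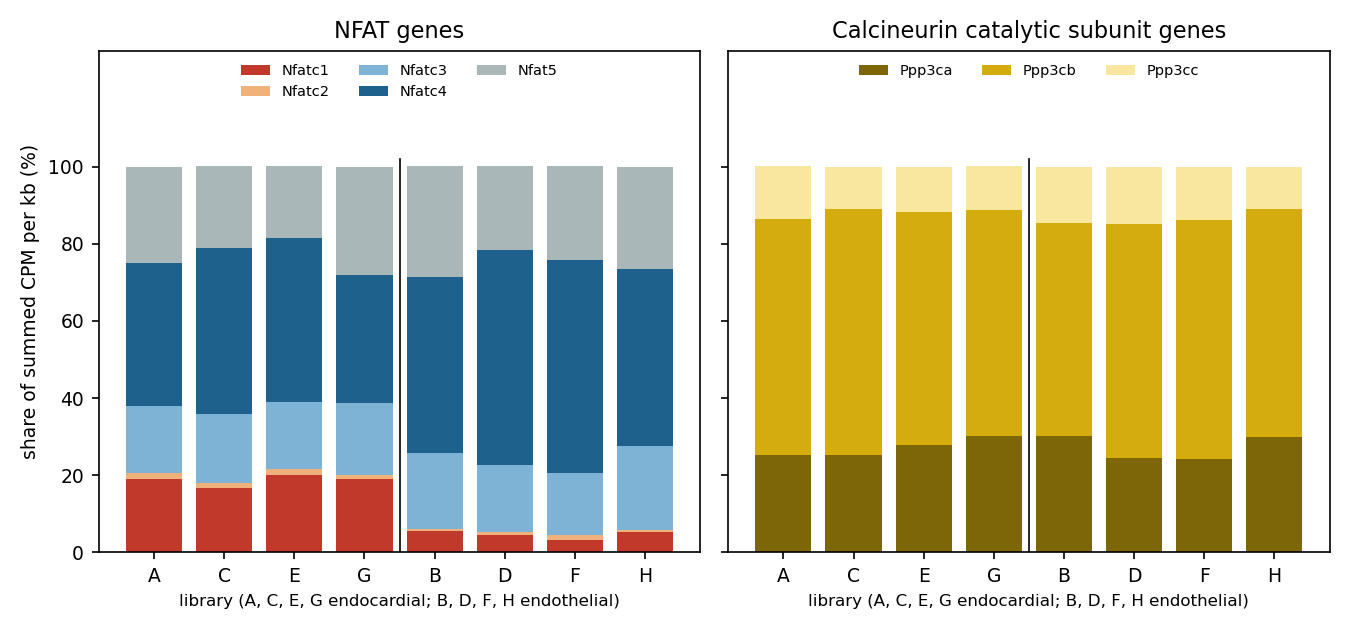
Share of each gene in the summed CPM per kb of the 5 NFAT genes (left) and the 3 calcineurin catalytic subunit genes (right), with 1 bar per library, endocardial libraries left of the line. The red share of Nfatc1 is 16.7 to 20% in endocardial and 3.15 to 5.45% in endothelial libraries, while the catalytic shares overlap between the groups.

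The genes around calcineurin and NFAT in the pathway were taken from 7 lists with 110 genes, of which 89 were tested. In the endocardial libraries 3 of the 89 were called higher and 0 lower by edgeR, and over all tested genes 1.42% were called higher and 1.16% lower. At an unadjusted p below 0.05 there were 15, which is 16.9% of the 89, near the 14.6% of all tested genes. DESeq2 and limma voom called 8 each, in fits that called 6.22% and 7.06% of all tested genes. The median log2 fold change of the 89 was 0.13, against 0.01 over all tested genes. The 3 genes were Gata2, Ikzf1 and Mef2a, all from the list of partner factors. The total changed when single libraries were left out. It was 6 without endothelial library B and 1, that of Gata2, without any one of A, C, D, E, F or G. Calls over all genes changed too, from 356 to 457 without B and to between 135 and 290 without any one of the others named.

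Partner factors bind DNA next to NFAT proteins, and of 17 listed, 14 were tested, with 3 higher, 0 lower and a median of 0.40. Over all tested genes 1.42% were called higher and 1.16% lower, and the median was 0.01. Gata2, a factor of endothelium and blood, had 19.2, 24.8, 22.3 and 40.3 CPM in endocardial libraries A, C, E and G, against 5.88, 5.26, 4.49 and 10.5 CPM in endothelial libraries B, D, F and H. The groups did not overlap, and the log2 fold change of 2.03 (SE 0.31, edgeR adjusted p = 0.00975) was called in all 17 alternatives. Ikzf1, a factor of blood cells, had 12.4 to 28.1 CPM in endocardial libraries and 0.478 to 6.60 CPM in endothelial libraries (log2 fold change 2.50, SE 0.54, edgeR adjusted p = 0.0458). Mef2a, a muscle and vessel factor that calcineurin is known to activate, had 86.0 to 104 CPM in endocardial and 60.8 to 70.8 CPM in endothelial libraries (log2 fold change 0.50, SE 0.10, edgeR adjusted p = 0.0327). When libraries were left out singly, Ikzf1 was called in 2 and Mef2a in 1 of 8 fits, against 8 of 8 for Gata2. Those fits called between 135 and 457 genes in all, against 356 with all 8 libraries. Mef2c, needed for heart and vessel formation, was at 1.08 (edgeR adjusted p = 0.0653). It was called in 4 of 17 alternatives, with DESeq2 (adjusted p = 0.00399), limma voom (0.0465), neighbouring letters as a block (0.00244) and without library B (0.0348).

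Gata2 and Ikzf1 are also genes of blood cells, whose markers differed in part. The 12 listed blood markers summed to between 609 and 1645 CPM in endocardial libraries. In endothelial library B they summed to 2022 CPM, above all endocardial libraries. In D, F and H they summed to 269, 259 and 379 CPM, below all endocardial libraries. The globin gene Hbb-bh1 gave the largest part, with means of 493 CPM in endocardial and 446 CPM in endothelial libraries. Its highest value was 1252 CPM, in an endothelial library, and it was not called. Of 10 tested markers, 2 were called higher (Tal1 and Gfi1b) and 0 lower, and none was at 0 in all libraries. The list's median log2 fold change was 1.32, against 0.01 over all tested genes, of which 1.42% were called higher and 1.16% lower. The part of blood cells in the Gata2 and Ikzf1 differences was not tested.

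Genes that release or admit calcium had 22 tested members, with 0 called by edgeR, 5 at an unadjusted p below 0.05 and a median of 0.12. Over all tested genes, edgeR called 2.58%, and 14.6% had an unadjusted p below 0.05. The nearest to the threshold was Trpc6, a cation channel gene, at 2.74 to 5.55 CPM in endocardial and 0.957 to 1.78 CPM in endothelial libraries (log2 fold change 1.45, SE 0.34, edgeR adjusted p = 0.0543, and 0.0131 by DESeq2). Atp2a3, a calcium pump of the endoplasmic reticulum, had 95 ± 22.4 CPM in endocardial and 38.1 ± 25.7 CPM in endothelial libraries (SD, n = 4 each; edgeR adjusted p = 0.133). Without endothelial library B its adjusted p was 0.00478, by edgeR. Orai1, the pore of store-operated entry, had a log2 fold change of 0.75 (edgeR adjusted p = 0.181). With neighbouring letters as a block, edgeR called 3 genes of the list higher, Trpc6 (adjusted p = 0.013), Atp2a3 (0.00512) and Orai1 (0.0469), and 1 lower, Cacna1h, named after its values were seen. That fit called 8.71% of all tested genes, against 2.58% in the main fit.

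No direct regulator of calcineurin and no NFAT kinase was called by edgeR, which called 2.58% of all tested genes. With so few genes listed, 0 calls say little about them. An unadjusted p below 0.05 was found for 14.6% of all tested genes. Of 11 tested calmodulin and calcineurin regulator genes, 2 had an unadjusted p below 0.05, and the median was 0.15. They were Akap5, which anchors calcineurin at the membrane, at 46.1 ± 8.57 CPM in endocardial and 30 ± 7.73 CPM in endothelial libraries (SD, n = 4 each; edgeR adjusted p = 0.155), and Fkbp1a, the protein through which tacrolimus blocks calcineurin (log2 fold change 0.37, edgeR adjusted p = 0.275). Of 16 tested genes for kinases, export and scaffolds, Homer2, which competes with calcineurin for NFAT, was the 1 with an unadjusted p below 0.05 (log2 fold change 0.38, edgeR adjusted p = 0.309), and the range was -0.30 to 0.38. Among 10 other substrates of calcineurin the median was 0.08, with Dnm1, a neuronal dynamin gene, at -0.98 (unadjusted p = 0.0235, edgeR adjusted p = 0.237, and 0.005 with neighbouring letters as a block). Neural marker genes summed to 28.8 to 46.6 CPM in endocardial and 75.1 to 197 CPM in endothelial libraries, with 0 of 9 tested called higher and 6 lower and no listed gene at 0 in all libraries, and their part in the Dnm1 value was not tested.

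Genes known as targets of NFAT proteins were not called by edgeR either. Since it called 2.58% of all tested genes, and 14.6% had an unadjusted p below 0.05, 0 calls in short lists are no result about targets. Of 18 listed targets of NFATc factors, many of them known from T cells or osteoclasts, 10 had enough counts, with 0 called by edgeR and 0 at an unadjusted p below 0.05. Their median log2 fold change was -0.17, against 0.01 over all tested genes. Ptgs2, which makes prostaglandins, had 15.7 ± 5.77 CPM in endocardial and 28.2 ± 16.2 CPM in endothelial libraries (SD, n = 4 each; edgeR adjusted p = 0.384, and 0.0294 with neighbouring letters as a block). Il2, Ifng, Csf2, Cd40lg and Sele had 0 counts in all 8 libraries.

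Among genes that high salt induces through Nfat5, 6 of 9 were tested and 0 were called by edgeR, against 2.58% of all tested genes. Their median was 0.18, and 2 had an unadjusted p below 0.05, in opposite directions, against 14.6% of all tested genes. Hspa4l, a chaperone gene, had 13.6 to 18.4 CPM in endocardial and 22.5 to 53.8 CPM in endothelial libraries (log2 fold change -1.13, SE 0.27, edgeR adjusted p = 0.0608, 0.00327 by DESeq2 and 0.0136 with neighbouring letters as a block), with the highest value in library F. Aqp1, a water channel also known from endothelium and red cells, had 2.12 to 6.91 CPM in endocardial and 0.802 to 2.03 CPM in endothelial libraries (log2 fold change 1.74, edgeR adjusted p = 0.0836, and 0.0127 by DESeq2). Slc5a3 and Slc6a6, transporters of osmolytes, had log2 fold changes of 0.12 and 0.34 (edgeR adjusted p = 0.792 and 0.447).

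**Figure D5:**
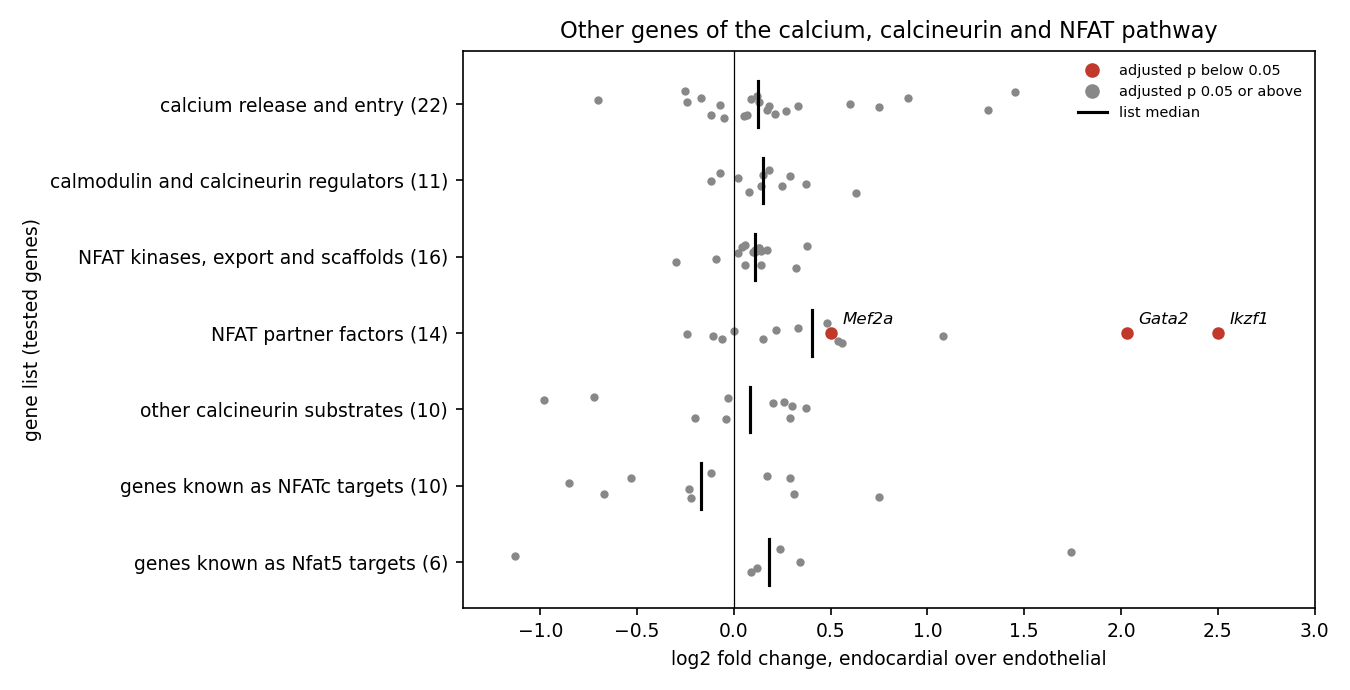
Log2 fold change of endocardial over endothelial for the 89 tested genes of 7 pathway lists, with 1 point per gene, the number of tested genes beside each list name and a black bar at the list median. The 3 called genes, in red, are Mef2a, Gata2 and Ikzf1 at 0.50, 2.03 and 2.50, and list medians lie between -0.17 and 0.40.

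The genes whose levels followed Nfatc1 most closely over the 8 libraries were sought among 11178 genes with at least 5 CPM in the higher group. By Pearson correlation of log2 CPM they were Grrp1 (0.993), Stat5a (0.992), Gab2 (0.988), Hapln1 (0.988), Vav3 (0.986), Aff3 (0.986), Ramp2 (0.985), Adra2a (0.985), Stat5b (0.984) and Wasf2 (0.982). Each had a higher mean in the endocardial libraries, so the value mostly reflects the group difference, and all share the same 8 libraries. Hapln1, a link protein of the cardiac jelly, averaged 188 ± 21.2 CPM in endocardial and 42.7 ± 8.12 CPM in endothelial libraries (SD, n = 4 each). Stat5a, a transcription factor of cytokine signalling, averaged 20.6 ± 0.515 CPM in endocardial and 8.53 ± 0.862 CPM in endothelial libraries (SD, n = 4 each). Of the other 9 NFAT and calcineurin genes, Ppp3r1 had the highest correlation with Nfatc1 (0.798) and Nfatc4 the lowest (-0.705).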

How the data were processed

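RNA libraries were made with a column RNA kit and a stranded mRNA kit, per the labels' protocols. The authors deposited estimated counts per gene symbol: Salmon, DESeq2 and build mm10 are named per the submitters' processing notes, while the sources used here state no versions, transcript set or filters. The deposited values were whole numbers with totals that differ between libraries. They were rounded again, which changed nothing.

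Counts were filtered with filterByExpr (at least 10 counts, summed to at least 15). TMM factors scaled the libraries, and edgeR 4.0.16 (R 4.3.3) gave the tests (robust quasi-likelihood, endocardial minus endothelial, all 8 libraries, Benjamini-Hochberg over 13817 genes). The fit was tested on simulated data with the same biological coefficient of variation, 0.239, for all genes and no outlying library. That setting differs from these data, so it does not vouch for single calls here. The SE and the 95% intervals were worked back from the log2 fold change and F statistic of that fit. The labels do not say that libraries come from separate cultures, so the p-values speak of the spread between these samples alone, and it may be technical. The lowest chi-square per degree of freedom between any 2 libraries was 8.41, so none was a copy. Each library has its own letter, and no label pairs them. Ratios of Nfatc1 used counts plus 0.5. Exon lengths and coordinates came from GENCODE M21 on GRCm38, the assembly of mm10, which held 32697 of the 34536 symbols, and promoter sequences from RefSeq. Alternatives were DESeq2 1.42.0, limma 3.58.1 voom, other scalings and filters, sva 3.50.0, a block of neighbouring letters and leaving out each library. The members and lists were chosen with earlier results of these data known. All 10 members were named, with up to 4 genes of the smallest p per list, all called genes, the 10 genes most correlated with Nfatc1 and the 5 most correlated within groups. A few others were named after their values were seen. One gene that the rule takes is not reported here.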

Additional observations from a re-analysis of the deposited data

Results flagged for a closer look

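In 4 of 100 groups of 4 libraries examined, 1 library lay far from the other 3, and chance alone does so in about 1 of 20 groups. Of these, 2 concern endothelial library F. Its log2 ratio of Nfatc1 to Ppp3r1 was -2.98, against -2.64 to -2.62 in the other endothelial libraries. Its log2 ratio of Nfatc1 to Pecam1 was -3.79, against -2.79 to -2.63 in the others. Endocardial library A stood apart for Orai1, at 11.0 CPM against 6.36 to 7.10 CPM in the other endocardial libraries. The same library stood apart for Acp5, a phosphatase gene of osteoclasts, at 6.97 CPM against 2.04 to 2.74 CPM.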

How the results depend on the processing

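Nfatc1 was called higher in all 17 alternatives, with a log2 fold change between 1.92 and 2.18 and, leaving out 1 library, an edgeR adjusted p between 0.000119 and 0.0016. The number of the 10 genes called stayed at 1 except with limma voom, where it was 2. The number of pathway genes called was 3, against 1 at an adjusted p below 0.01. It was 8 with DESeq2, 8 with limma voom, 11 with neighbouring letters as a block and 1 to 6 without 1 library. Calls over all tested genes rose too, from 2.58% to 6.22% with DESeq2, 7.06% with limma voom and 8.71% with that block. Without 1 library they ran from 135 to 457 genes, against 356 with all 8 libraries. The cause of the change in pathway calls was not tested. The Nfatc1 share of the NFAT genes was 11.9% in endocardial and 2.84% in endothelial libraries with the median coding transcript, whose lengths differ by construction. The groups share no replicate letter and no label pairs the libraries, so the block of neighbouring letters is a pairing chosen for its letters alone; with it Nfatc1 was at 2.11 (edgeR adjusted p = 0.000281). Near 0, the log2 fold changes of Nfatc3, Nfat5, Ppp3ca and Rcan1 had the other sign in 7, 2, 4 and 3 of the alternatives and were never called. Of the 10 genes, Nfatc2 had the fewest counts: its coefficient of variation was 7.33% in endocardial and 46% in endothelial libraries, where counting alone would give 15.2% in endocardial and 19.6% in endothelial libraries.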

Other observations

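With the group means taken out, so that only differences between libraries of one label remain, the 5 genes most correlated with Nfatc1 over the 8 libraries were Ddx6 (Pearson r = 0.992), Lrrc1 (0.984), Rragd (0.982), Cnrip1 (0.980) and Prelid1 (0.975). None of them was called between the groups by edgeR, with Ddx6 at a log2 fold change of 0.12 (adjusted p = 0.751). With 11178 genes compared over so few libraries, high values are found for some genes whatever their relation to Nfatc1, and no test was made.

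Other lists of markers gave the following sums. Heart muscle genes were at 163 to 306 CPM in endocardial and 94.7 to 221 CPM in endothelial libraries. Epithelial genes were at 543 to 896 CPM in endocardial and 685 to 1250 CPM in endothelial libraries, a sum made mostly of Krt8 and Krt18, which were not called. The list's median log2 fold change was -1.90, with 2 of 8 called lower by edgeR, against 1.16% of all tested genes. The 2 were Cdh1, at 27.7 ± 11.1 CPM in endocardial and 121 ± 69.2 CPM in endothelial libraries (SD, n = 4 each), and Epcam, at 7.73 ± 2.27 CPM in endocardial and 35.5 ± 25.5 CPM in endothelial libraries (SD, n = 4 each). Smooth muscle genes were at 1285 to 2136 CPM in endocardial and 641 to 1955 CPM in endothelial libraries, and mesenchyme genes at 3655 to 7113 CPM in endocardial and 3260 to 22350 CPM in endothelial libraries, with the highest value in endothelial library B. Of 9 tested endocardial markers, 4 were called higher by edgeR: Nfatc1, the gene examined here, Hapln1, Plxnd1 and Nrg1. The others were not called, with log2 fold changes of 1.05 for Bmp2, 0.54 for Gata4, 0.30 for Npr3, -0.02 for Hand2 and -0.04 for Cdh11. The same rule called 18 of 23 tested genes of the endothelial list higher, and 1.42% of all tested genes.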
